A study of Mus musculus with 16 samples.

Results

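The genes described here are 10 genes of protein folding in the endoplasmic reticulum (ER) and of its stress response, *Sdf2l1*, *Hspa5*, *Dnajb9*, *Dnajb11*, *Manf*, *Creld2*, *Pdia4*, *Hyou1*, *Herpud1* and *Ddit3*. They were taken by gene symbol from the 14474 genes of the deposited counts table, and all 10 are in it. *Sdf2l1* was chosen because it had passed the threshold in an earlier comparison of LN332-treated with vehicle-treated MKα3+ cells, and the other 9 genes were gathered around it by function. The values of that comparison are therefore given below as a description, with no test.

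The cells are an immortalized mouse keratinocyte line without integrin α3 (MKα3−) and its derivative in which human α3 was put back (MKα3+), so each genotype is represented by a single line. Cells of both lines were cultured with laminin-332 (LN332), a ligand of integrin α3β1, at 0.02 mg/mL or with an equal volume of vehicle for 16 to 24 h, and poly(A) RNA of 4 replicates from each of the 4 groups was sequenced. The study asked which keratinocyte genes depend on α3β1 and which respond to added LN332. The labels do not say that replicates were separate cultures, so p-values measure only the spread between these samples.

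The ER folds proteins that are to be secreted or placed in membranes, and its chaperones are abundant in cells that make much matrix and cell surface protein, as keratinocytes do. When unfolded proteins build up, the sensors IRE1 (*Ern1*), ATF6 and PERK (*Eif2ak3*) start the unfolded protein response (UPR). IRE1 and ATF6, through XBP1 and the cleaved form of ATF6, raise the genes of chaperones and of ER-associated degradation, and PERK, through ATF4, raises genes of amino acid supply and stress, among them *Ddit3*. *Hspa5* encodes BiP, the Hsp70-type chaperone at the centre of this system. *Hyou1* encodes a nucleotide exchange factor of BiP, *Dnajb9* and *Dnajb11* encode J-domain co-chaperones, *Sdf2l1* encodes a partner of the DNAJB11 protein, *Manf* encodes a secreted ER protein that binds BiP, *Pdia4* encodes a disulfide isomerase, *Creld2* encodes an ER stress-inducible protein with EGF-like domains, *Herpud1* encodes an adaptor of ER-associated degradation and *Ddit3* encodes the transcription factor CHOP.

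Chaperone promoters are known for the ER stress response element (ERSE), CCAAT and CCACG with 9 bases between them, and for ERSE-II, ATTGG and CCACG with 1 base between them, and the sequences that follow show which of these genes hold either one. Promoters of 300 bases, 250 before and 50 from the annotated start, were taken from RefSeq on GRCm38.p6, where 8 of the 10 genes had an entry and *Manf* and *Hyou1* had none. Both strands were searched for exact matches. ERSE was found in *Hspa5*, 65 to 47 bases before the start, and in *Creld2*, 126 to 108 bases before the start and on the opposite strand. ERSE-II was found in *Herpud1*, 52 to 42 bases before the start, and in *Dnajb11*, 7 to 17 bases after the first transcribed base. Either element was in 4 of the 8 promoters, in 8 of the 88 promoters of the other ER and UPR genes listed below, and in 0.155% of the 32851 promoters of the table. Capitals mark the element.
Hspa5, chr2:34771975-34772089 (+ strand): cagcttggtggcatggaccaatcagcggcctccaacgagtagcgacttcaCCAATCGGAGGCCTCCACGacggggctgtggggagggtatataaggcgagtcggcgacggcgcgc
Creld2, chr15:88819470-88819588 (+ strand): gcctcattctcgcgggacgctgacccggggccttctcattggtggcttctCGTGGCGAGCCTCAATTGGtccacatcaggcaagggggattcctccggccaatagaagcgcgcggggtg
Dnajb11, chr16:22857802-22857869 (+ strand): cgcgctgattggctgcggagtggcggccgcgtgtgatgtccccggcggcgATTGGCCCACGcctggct
Herpud1, chr8:94386327-94386428 (+ strand): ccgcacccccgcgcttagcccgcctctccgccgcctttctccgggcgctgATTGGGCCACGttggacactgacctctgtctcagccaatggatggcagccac
ERSE with 1 letter differing was in *Pdia4*, *Herpud1* and *Ddit3*, and with at most 1 differing in 1.5% of all promoters. The promoter of *Sdf2l1* held no exact ERSE or ERSE-II. On its opposite strand an ERSE-II with 1 letter differing lay 149 to 139 bases before the start, and *Hspa5* and *Creld2* also held such a match. These near matches of ERSE-II were not counted over all promoters. The shorter letters CCACG, which end both elements, occurred 3 times on its opposite strand, as CGTGG starting 207, 149 and 17 bases before the start, and these are in capitals in the 250 bases before the start.
Sdf2l1, chr16:17132384-17132633 (- strand): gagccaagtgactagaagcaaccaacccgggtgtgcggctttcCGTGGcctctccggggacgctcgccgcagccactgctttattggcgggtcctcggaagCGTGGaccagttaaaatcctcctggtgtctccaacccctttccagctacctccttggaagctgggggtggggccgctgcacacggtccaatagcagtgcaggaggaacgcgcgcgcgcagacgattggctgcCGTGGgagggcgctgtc
CCACG on either strand was in 7 of the 8 promoters and in 32.8% of all promoters. The UPR element TGACGTGG was in 0 of the 8 promoters and in 0.676% of all promoters, and the C/EBP-ATF element TTGCATCA was in *Herpud1* and in 0.895% of all promoters. A match is a description of these letters, not of binding.

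Total counts per library were between 21735708 and 29338370, and the 10 genes had between 171 (*Dnajb9*) and 21963 (*Hspa5*) counts in a library. Levels below are TMM-normalized CPM, counts scaled to the library's effective size. The summed level of 9 keratinocyte markers, with *Krt5* and *Krt14* among them, was between 9465 and 21366 CPM, that of 4 fibroblast markers in the table between 8.74 and 28.2 CPM, and *Dcn* and *Lum* were not in the table. The summed level of endothelial markers was between 3.16 and 5.77 CPM, and of the melanocyte markers only *Pmel* was in the table, between 0.827 and 3.94 CPM. The summed level of 3 of 4 immune markers (*Ptprc*, *Cd74* and *Lyz2*, with *Cd3e* not in the table) was between 40.4 and 83.8 CPM in MKα3− cells and between 69.9 and 305 CPM in MKα3+ cells.

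Certain libraries stood apart for these genes. In vehicle-treated MKα3+ replicate 3, 9 of the 10 genes were above their group mean and 7 were the highest of their group, with a median deviation of 0.22 on the log2 scale. In LN332-treated MKα3− replicate 4, the library of lowest depth, 6 genes were the lowest of their group and the median deviation was -0.23, while *Ddit3* was the highest. In LN332-treated MKα3− replicate 1, 7 genes were the highest of their group (median deviation 0.18), and in vehicle-treated MKα3+ replicate 1, 7 were the lowest (median deviation -0.15).

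**Figure D1:**
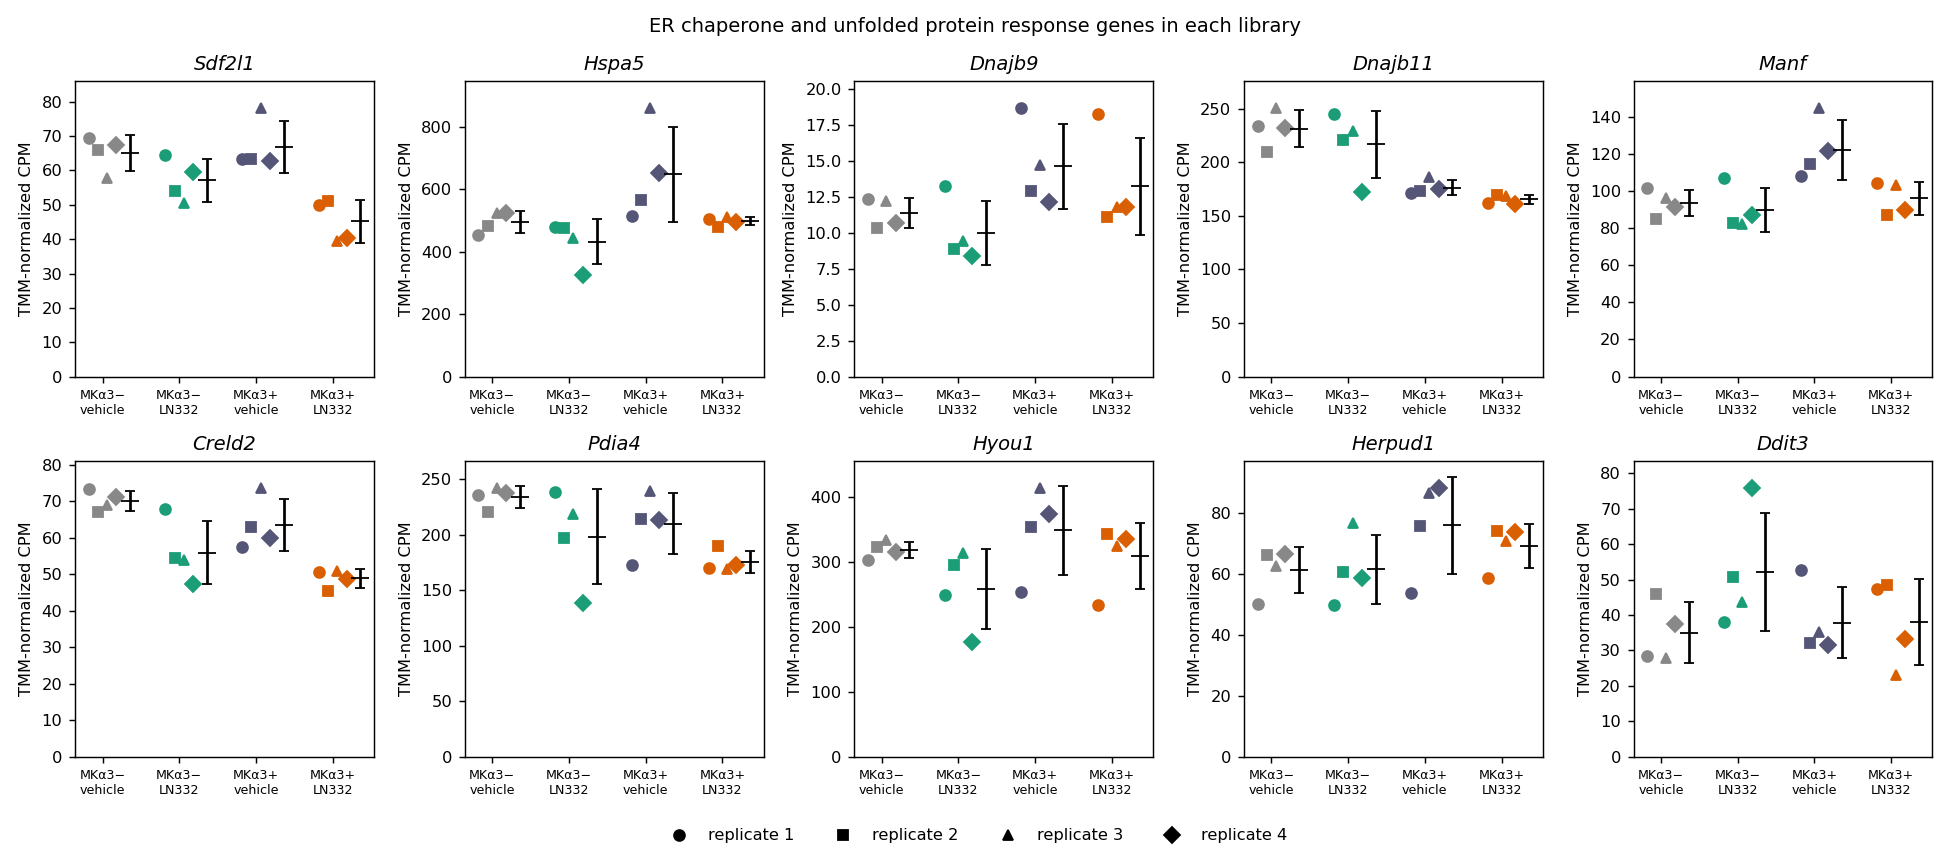
TMM-normalized CPM of each of the 10 genes in the 16 libraries, by group, with a marker shape for each replicate number and the mean ± SD (n = 4) in black. *Sdf2l1* in LN332-treated MKα3+ cells lay between 39.3 and 51.1 CPM, under the 62.8 to 78.2 CPM of vehicle-treated MKα3+ cells.

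Levels of different genes were compared only per kilobase of exonic length. That length joins the exons of all GENCODE transcripts of a gene, whereas the counts used an Entrez annotation. For *Manf* it was 3524 bases, longer than the RefSeq span of the gene (106888753 to 106891938). Levels per kb and ranks between genes are therefore approximate. In all 4 groups, *Hspa5* had the highest level of the 10 and *Dnajb9* the lowest. In vehicle-treated MKα3− cells, *Hspa5* was at 117 ± 8.03 CPM per kb (SD, n = 4), followed by *Pdia4* at 97.4 ± 3.96, *Dnajb11* at 71.5 ± 5.27, *Sdf2l1* at 58.8 ± 4.63, *Creld2* at 51.3 ± 2.02, *Hyou1* at 44.0 ± 1.78, *Manf* at 26.6 ± 2.004, *Herpud1* at 26.2 ± 3.25, *Ddit3* at 20.4 ± 5.002 and *Dnajb9* at 4.46 ± 0.407 CPM per kb (SD, n = 4). In that order 3 of the 9 neighbouring pairs overlapped over the libraries, *Sdf2l1* with *Creld2*, *Manf* with *Herpud1* and *Herpud1* with *Ddit3*. In LN332-treated MKα3− cells 8 of the 9 neighbouring pairs overlapped, and only *Dnajb9*, at 3.91 ± 0.879 CPM per kb (SD, n = 4), lay clear of its neighbour. *Sdf2l1* was at rank 4 in both groups of MKα3− cells, and in MKα3+ cells it was at rank 3 in vehicle, at 60.4 ± 6.81 CPM per kb, and at rank 5 in LN332, at 40.8 ± 5.60 CPM per kb (SD, n = 4). The ranges of *Sdf2l1* and *Dnajb11* overlapped in vehicle-treated MKα3+ cells, as did those of *Sdf2l1* and *Hyou1* in LN332-treated MKα3+ cells, so these ranks are not settled by the spread.

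In MKα3+ cells, *Sdf2l1* (Entrez 64136, chromosome 16, 17130138 to 17132383, minus strand, GRCm38) was lower with LN332 in every library. It was at 63.2, 63.4, 78.2 and 62.8 CPM in vehicle replicates 1 to 4 and at 49.96, 51.1, 39.3 and 40.3 CPM in LN332 replicates 1 to 4. In bulk RNA, a change in the RNA per cell and in the share of cells that carry it cannot be told apart. The groups did not overlap, replicate 3 was the highest with vehicle and the lowest with LN332, and the fitted log2 fold change was -0.57 (SE 0.11), a change in level of -32.7%. Leaving out 1 library at a time gave between -0.64 and -0.49, the last without vehicle replicate 3.

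The other 9 genes also had log2 fold changes below 0 in this comparison, between -0.37 (SE 0.10) for *Creld2* and -0.03 (SE 0.25) for *Ddit3*. The value of *Ddit3* was 0.19 without LN332 replicate 3, and edgeR and DESeq2 each gave 9 of the 10 genes below 0. *Creld2* was at 57.5, 62.9, 73.6 and 59.9 CPM with vehicle and at 50.5, 45.3, 50.9 and 48.6 CPM with LN332. *Hspa5* was at 514, 566, 860 and 652 CPM with vehicle and at 506, 480, 512 and 495 CPM with LN332, a log2 fold change of -0.35 (SE 0.15). For *Hspa5* the vehicle libraries were spread over a wide range and the LN332 libraries were close together, and the groups came within 3 CPM of each other. Without vehicle replicate 3 the log2 fold change of *Hspa5* was -0.21. *Manf* was at 108, 114, 145 and 121 CPM with vehicle and at 105, 87.0, 103 and 89.7 CPM with LN332, a log2 fold change of -0.34 (SE 0.11). These were narrow gaps, and *Pdia4* (-0.25), *Hyou1* (-0.17), *Dnajb9* (-0.16), *Herpud1* (-0.11) and *Dnajb11* (-0.09) had smaller log2 fold changes.

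Of the 10 genes, 5 were lower with LN332 in MKα3+ cells with no overlap between the groups (*Sdf2l1*, *Hspa5*, *Dnajb11*, *Manf* and *Creld2*), where 4.88% of all genes were. This count and those that follow include *Sdf2l1*, which was chosen for its change in this comparison. They are therefore no test against the shares of all genes. The threshold, in limma-voom a log2 fold change of over 0.5 in either direction with a Benjamini-Hochberg adjusted p under 0.05, was passed by 1 of the 10, *Sdf2l1*, the gene chosen on it, and by 0.187% of all genes. *Sdf2l1* did not pass it with edgeR, with library size alone or in 13 of the 16 fits that left out 1 library. With replicate number entered in the fit as a block shared by all 4 groups, *Sdf2l1* passed (log2 fold change -0.57), and DESeq2 called 1 of the 10. Both are given as a description. A log2 fold change below 0 was found in 10 of 10 and in 51.5% of all genes, with a median of -0.21 over the 10 and of -0.01 over all genes. Libraries of the same replicate number deviated together in this comparison, and within numbers 8 of the 10 genes were lower with LN332 in 4 of 4 numbers, as were 19.9% of all genes, while *Herpud1* was lower in 3 and *Ddit3* in 2. Without vehicle replicate 3 and LN332-treated MKα3− replicate 4, 10 of 10 log2 fold changes were still below 0, with a median of -0.17.

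**Figure D2:**
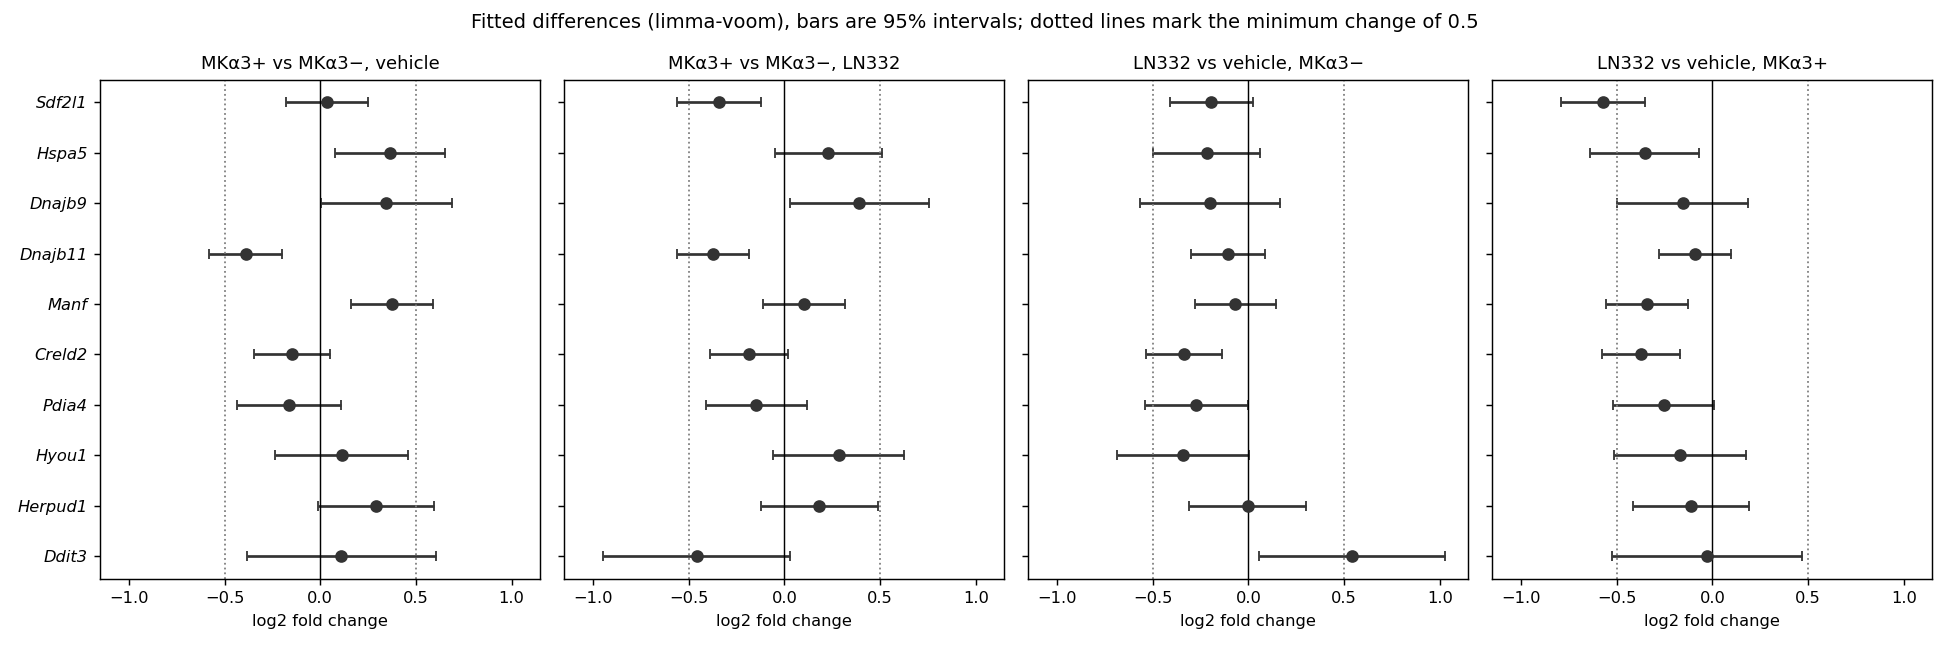
Log2 fold changes of the 10 genes from limma-voom in 4 comparisons, with points at the estimate, bars for 95% intervals and dotted lines at the minimum change of 0.5. Of the 40 estimates, *Sdf2l1* with LN332 in MKα3+ cells (-0.57) and *Ddit3* with LN332 in MKα3− cells (0.54) lie past 0.5 in absolute value, and the last did not pass the test.

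LN332 in MKα3− cells was compared with vehicle in groups other than those compared when *Sdf2l1* was chosen, so the genes were tested there. The test is not fully independent of that choice, because all libraries were in the same fit. Leaving out some MKα3− libraries changed the call of *Sdf2l1* in MKα3+ cells. The genes were also chosen with earlier results of these data known. None of the 10 genes passed the threshold, which 0.304% of all genes passed in limma-voom, and 0 passed in edgeR and in DESeq2. At an unadjusted p under 0.05 there were 2, *Creld2* and *Ddit3*, beside 14.0% of all genes. *Sdf2l1* was at 69.5, 65.9, 57.7 and 67.3 CPM with vehicle and at 64.5, 54.1, 50.5 and 59.5 CPM with LN332. These groups overlapped, and the log2 fold change was -0.19 (95% interval -0.41 to 0.02, adjusted p = 0.458 from limma-voom, exact permutation p = 0.114, two-sided over 70 splits of 4 against 4, where the smallest possible p is 0.0286).

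*Creld2* was at 73.3, 66.9, 69.0 and 71.3 CPM with vehicle and at 68.0, 54.4, 53.9 and 47.3 CPM with LN332 in MKα3− cells. LN332 replicate 1 alone fell among the vehicle libraries, and the log2 fold change was -0.34 ± 0.10 (SE, limma-voom adjusted p = 0.161, exact permutation p = 0.0571). Without LN332 replicate 1 it was -0.44 (limma-voom adjusted p = 0.0300), under the minimum change of 0.5. *Hyou1* was at 302, 322, 333 and 315 CPM with vehicle and at 249, 294, 313 and 176 CPM with LN332, a log2 fold change of -0.34 ± 0.18 (SE, limma-voom adjusted p = 0.400, exact permutation p = 0.0571). *Hyou1* was lowest in LN332 replicate 4, and without that library the log2 fold change was -0.17. Without the same library *Hspa5* went from -0.22 to -0.09 and *Pdia4* from -0.27 to -0.11.

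*Ddit3* went the other way in MKα3− cells, from 28.5, 46.0, 28.0 and 37.6 CPM with vehicle to 38.1, 50.7, 43.5 and 75.8 CPM with LN332. The groups overlapped, and its log2 fold change was 0.54 ± 0.25 (SE, limma-voom adjusted p = 0.341, exact permutation p = 0.114), or 0.35 without LN332 replicate 4. On the opposite strand, *Ddit3* overlaps *Mars* by 68 exonic bases and *Gm4189* by 13, and *Manf* overlaps *Dcaf1* by 146 and *4930524O07Rik* by 166. *Manf* also overlaps *Rbm15b* by 14 on the same strand, which no strand setting would separate. The sources used here do not name the strand setting, so the counts of *Ddit3* and *Manf* are uncertain to that extent. The log2 fold change was -0.20 for *Dnajb9*, -0.11 for *Dnajb11*, -0.07 for *Manf* and -0.00 for *Herpud1*, with exact permutation p-values of 0.286, 0.543, 0.600 and 1. In MKα3− cells 9 of the 10 genes had a log2 fold change below 0, as had 51.1% of all genes, and 0 of the 10 had groups that did not overlap, where 4.95% of all genes had. Without LN332 replicate 4 and vehicle-treated MKα3+ replicate 3, 7 of the 10 were below 0 and the median went from -0.20 to -0.09.

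The LN332 response in MKα3+ cells minus that in MKα3− cells holds the comparison on which *Sdf2l1* was chosen, and is given as a value only. It was -0.38 (SE 0.16) on the log2 scale for *Sdf2l1*, -0.57 (SE 0.35) for *Ddit3*, which had the widest error of the 10, and -0.27 for *Manf*. Over all genes, 0 passed the threshold for this difference in limma-voom, edgeR and DESeq2. In limma-voom 164 of the 14474 had an unadjusted p under 0.05. That fit leaves replicate number out, and a count of 0 does not show that the lines respond alike.

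No tested gene of the 10 passed the threshold between the lines. In vehicle, 0 of the 9 genes other than *Sdf2l1* passed the threshold between MKα3+ and MKα3− cells, where 18.5% of all genes did in limma-voom, and 0 did in edgeR and in DESeq2, with 3 at an unadjusted p under 0.05 (*Hspa5*, *Dnajb11* and *Manf*), beside 39.0% of all genes. In LN332 the count was also 0 of 9, in all 3 tools, beside 20.6% of all genes, with 2 at an unadjusted p under 0.05 (*Dnajb9* and *Dnajb11*), beside 42.5%. The vehicle and LN332 comparisons share no library with each other, but each shares a group with the comparisons of LN332 with vehicle. *Sdf2l1* shares a group with the comparison it was chosen on, and its log2 fold changes of 0.04 (SE 0.11) in vehicle and -0.34 (SE 0.11) in LN332 are given with no test.

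With no minimum change, an adjusted p under 0.05 was reached by 2 of the 9 genes in vehicle (*Dnajb11* and *Manf*), beside 28.4% of all genes, and by 1 in LN332 (*Dnajb11*), beside 32.2%. In vehicle *Dnajb11* was at 234, 209, 251 and 232 CPM in MKα3− cells and at 171, 174, 186 and 175 CPM in MKα3+ cells. The groups did not overlap, and the log2 fold change was -0.39 ± 0.10 (SE, limma-voom adjusted p = 0.00624), a change in level of -23.6%. In LN332 it was at 245, 221, 229 and 172 CPM in MKα3− cells and at 162, 170, 169 and 161 CPM in MKα3+ cells, where the fitted log2 fold change was -0.37 ± 0.10 (SE, limma-voom adjusted p = 0.00656). Again the groups did not overlap, with MKα3− replicate 4 closest to the MKα3+ libraries.

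*Manf* was higher in vehicle-treated MKα3+ cells, at 108, 114, 145 and 121 CPM, than in vehicle-treated MKα3− cells, at 102, 85.2, 96.5 and 91.4 CPM. The groups did not overlap, and the log2 fold change was 0.38 ± 0.11 (SE, limma-voom adjusted p = 0.0152), under the minimum change. Without MKα3+ replicate 3 it was 0.29 (limma-voom adjusted p = 0.0657). In LN332 the log2 fold change of *Manf* was 0.10 ± 0.11 (SE, limma-voom adjusted p = 0.510), and the difference between this value and that in vehicle, -0.27, is the one given above without a test. *Hspa5* had a log2 fold change of 0.36 ± 0.15 (SE, limma-voom adjusted p = 0.0726) in vehicle, or 0.22 without MKα3+ replicate 3.

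In LN332, *Hspa5* was at 480, 475, 444 and 325 CPM in MKα3− cells and at 506, 480, 512 and 495 CPM in MKα3+ cells, which did not overlap by a margin of under 1 CPM, and the log2 fold change was 0.23 ± 0.14 (SE, limma-voom adjusted p = 0.233), or 0.09 without MKα3− replicate 4. *Dnajb9* had the lowest counts of the 10, and was at 13.3, 8.83, 9.44 and 8.36 CPM in LN332-treated MKα3− cells and at 18.3, 11.1, 11.8 and 11.8 CPM in LN332-treated MKα3+ cells. Replicate 1 was the highest in both lines, and the log2 fold change was 0.39 ± 0.19 (SE, limma-voom adjusted p = 0.118). Without MKα3− replicate 1 it was 0.54 (limma-voom adjusted p = 0.0404), which passes the threshold, and without MKα3+ replicate 1 it was 0.23 (limma-voom adjusted p = 0.333). In each of the 2 comparisons, 1 of the 10 genes was higher and 1 lower with no overlap. Of all genes, 17.2% were higher and 15.7% lower with no overlap in vehicle, and 13.6% and 12.9% in LN332. The summed immune markers given above reached higher levels in MKα3+ libraries, and their part in these values was not tested.

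**Figure D3:**
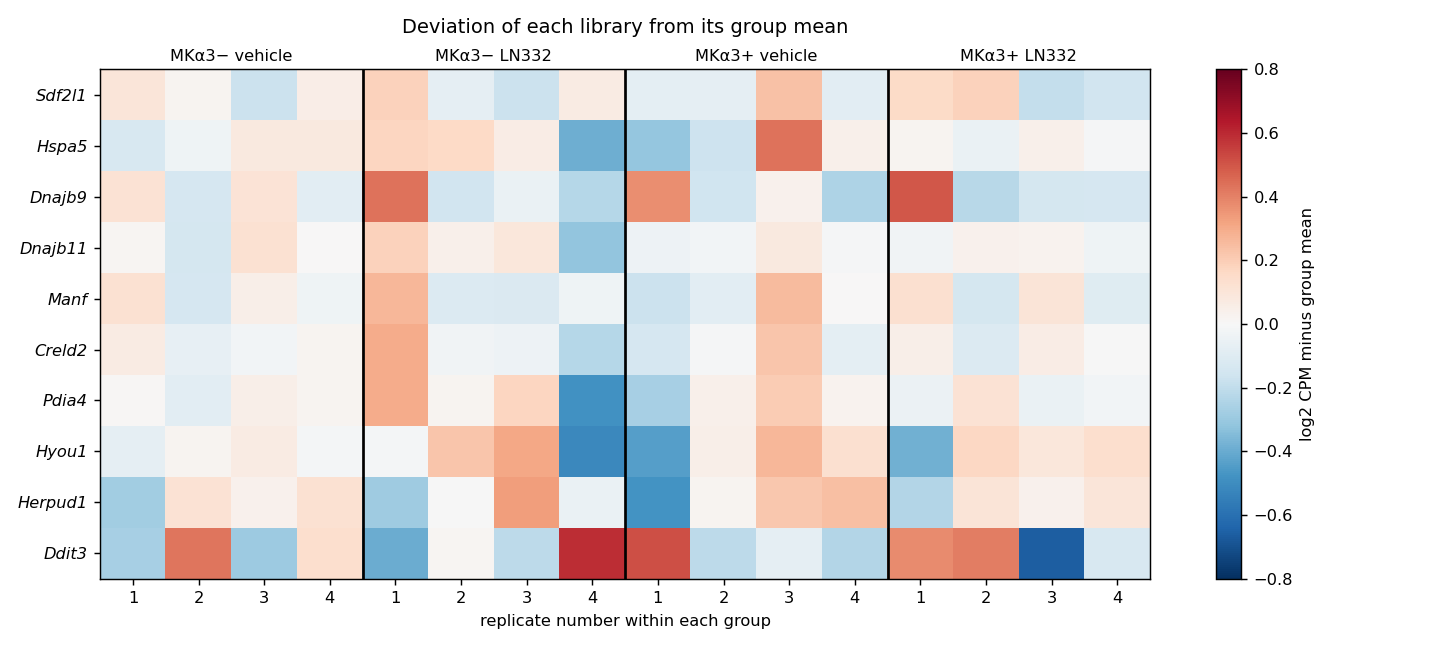
Log2 CPM of each of the 10 genes in each library minus the mean of its group, in red where above and blue where below. Vehicle-treated MKα3+ replicate 3 is above its group mean in 9 of 10 genes, LN332-treated MKα3− replicate 4 is below in 8 of 10, and *Ddit3* runs opposite to most of the others.

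Within groups, the 10 genes did not vary as a single block. Over the 16 deviations from group means, 12 of the 45 pairs of genes had a Pearson r above 0.5 and 14 had one below 0. The pairs of highest r were *Dnajb11* with *Pdia4* (0.89), *Manf* with *Creld2* (0.82) and *Hspa5* with *Pdia4* (0.79), and *Hyou1* and *Herpud1* had an r of 0.72. The lowest were *Dnajb9* with *Herpud1* (-0.73) and *Dnajb11* with *Ddit3* (-0.66). In replicate 1 of every group *Dnajb9* was above its group mean and *Herpud1* below, and the deviations were not adjusted for replicate number. *Ddit3*, which is an output of the PERK arm, was in 7 of the 14 pairs below 0.

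*Sdf2l1* varied less closely with the other 9 genes than several of them did with each other. Its r with them ran from -0.24 (*Herpud1*) to 0.47 (*Manf*), and *Manf* ranked 721 among the 14473 other genes for likeness to it. The genes most like it were *Zfp607a* (0.80), *Parm1* (0.78), *Dock3* (0.77), *Ppp1r14d* (0.75) and *U2af1l4* (0.75). These values describe 16 libraries in which genes share depth and RNA quality, and no test was made of them.

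Of 104 other ER and UPR genes listed by role, 103 were in the table, and 0 of them passed the threshold with LN332 in either line in limma-voom and in edgeR. In limma-voom 0.304% of all genes passed it in MKα3− cells and 0.187% in MKα3+ cells. DESeq2 called 3 of the 103 in MKα3− cells and 0 in MKα3+ cells, beside 165 and 123 of all 14474 genes. At an unadjusted p under 0.05 in limma-voom there were 22 (12 higher) and 14 (10 higher). Of all genes, 14.0% were under that p in MKα3− cells. The share in MKα3+ cells and the shares by direction were not counted, so those counts have no background here. In MKα3− cells the median log2 fold change was -0.13 over 15 ER lectins, co-chaperones and paralogs, -0.11 over 15 oxidoreductases and prolyl isomerases, -0.09 over 18 genes of ER-associated degradation and -0.07 over 21 genes of translocation and glycosylation. In MKα3+ cells these medians were -0.07, -0.07, -0.04 and 0.00. *Hsp90b1*, which encodes the ER form of Hsp90, had log2 fold changes of -0.40 and -0.35 in MKα3− and MKα3+ cells, and *Sdf2*, the paralog of *Sdf2l1*, had -0.07 and -0.20. Among the sensors, *Ern1* had -0.46 and -0.00, *Eif2ak3* had -0.29 and -0.10, *Atf6* had 0.11 and 0.30, and *Xbp1* had 0.04 and -0.13, and none of these passed the test.

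Most outputs of PERK and ATF4 had log2 fold changes of the other sign to the chaperones. Of 23 such genes other than *Ddit3*, 22 were above 0 with LN332 in MKα3− cells (median 0.40) and 23 in MKα3+ cells (median 0.45). Of all genes, 51.1% and 51.5% were below 0. *Ddit3*, also an output of PERK, had log2 fold changes of 0.54 in MKα3− cells and -0.03 in MKα3+ cells. The list of 23 was chosen with earlier results of these data known, so its counts are a description. *Trib3*, a pseudokinase induced by ATF4, had log2 fold changes of 1.32 ± 0.47 (SE, limma-voom adjusted p = 0.232) and 0.87 ± 0.49 (SE, limma-voom adjusted p = 0.619), and *Atf4* itself had 0.84 ± 0.32 (SE, limma-voom adjusted p = 0.258) and 0.64 ± 0.33 (SE, limma-voom adjusted p = 0.590). Replicate number was also entered in the fit as a block, with effects shared by all 4 groups. It is therefore not a paired fit of MKα3+ cells alone, and pairing in MKα3− cells is not settled. In MKα3+ cells 4 of the 23 then passed the threshold in limma-voom, beside 218 of all 14474 genes. They were *Shmt2* (0.51), *Vldlr* (0.70), *Asns* (0.57) and *Ppp1r15a* (0.54), all higher with LN332 and named after their values were seen. *Shmt2* and *Asns* serve serine and asparagine metabolism, and *Ppp1r15a* encodes the stress-induced phosphatase subunit that reverses eIF2α phosphorylation.

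**Figure D4:**
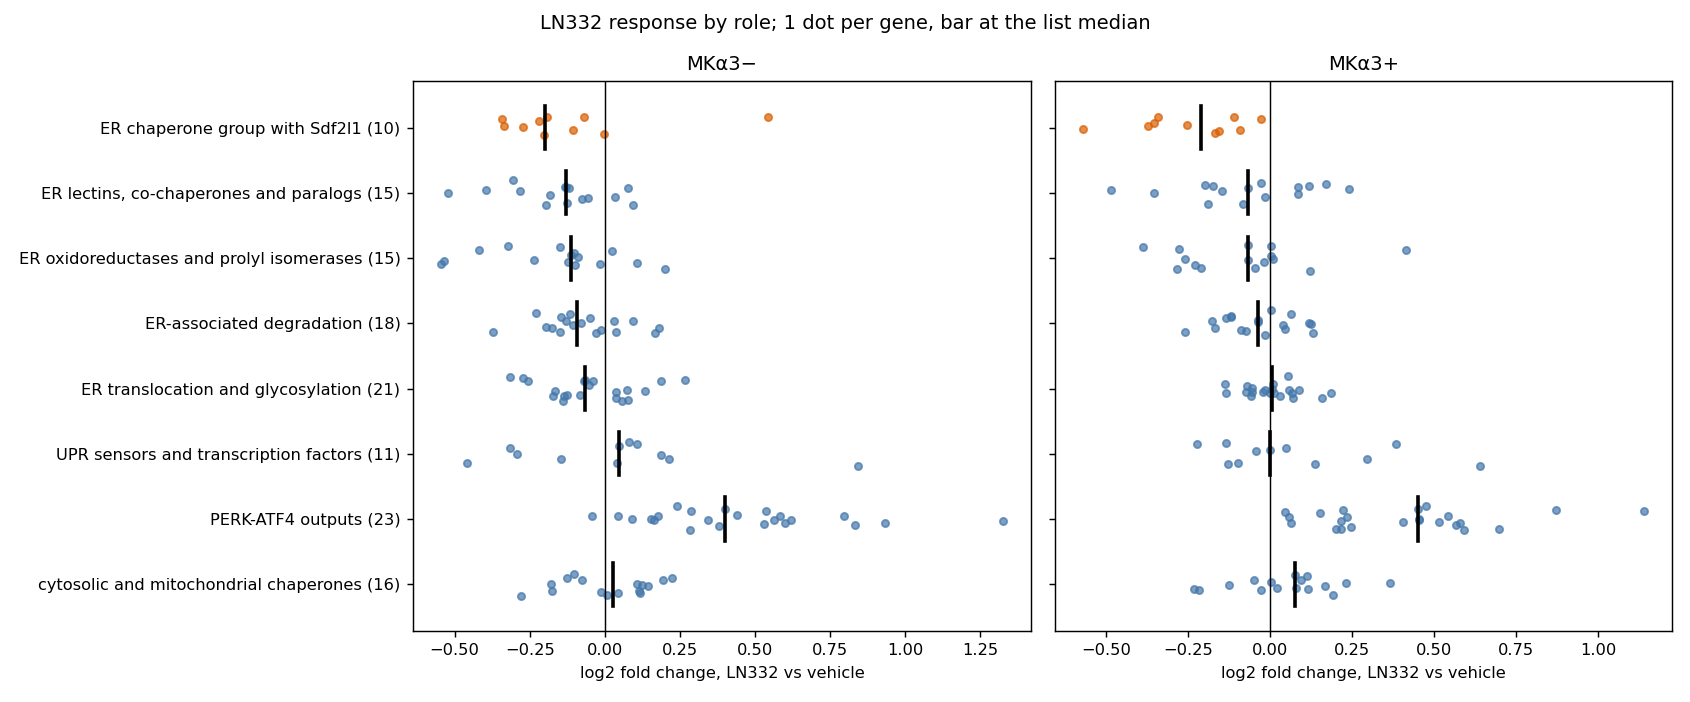
Log2 fold change with LN332 in MKα3− (left) and MKα3+ cells (right) for the 10 genes (orange) and for other genes by role (blue), with 1 dot per gene and a bar at each median. The 10 genes, *Ddit3* among them, have medians of -0.20 and -0.21. The 23 outputs of PERK and ATF4 listed apart from them have medians of 0.40 and 0.45.

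Between the lines, 11 of the 103 other ER and UPR genes passed the threshold in vehicle, 6 higher and 5 lower in MKα3+ cells, and 15 in LN332, 6 higher and 9 lower. Of all genes, 10.9% were higher and 7.56% lower in vehicle, and 11.7% were higher and 8.92% lower in LN332. Among oxidoreductases and prolyl isomerases, *Qsox1*, a sulfhydryl oxidase, fell with log2 fold changes of -2.43 in vehicle and -2.18 in LN332, *Fkbp11*, a prolyl isomerase, fell with -1.23 and -1.07, and *Fkbp2* fell by 0.51 in LN332. Of the sensors, *Atf6* rose by 0.55 in vehicle and 0.74 in LN332, and *Ern1* rose by 0.67 in LN332. In ER-associated degradation, *Ube2j1*, a ubiquitin-conjugating enzyme, rose by 0.63 and 0.52 and *Os9*, a lectin for misfolded glycoproteins, fell with -0.69 and, at the limit of the minimum change, -0.50. *Stt3b*, a catalytic subunit of the oligosaccharyltransferase, rose by 0.55 and 0.77, and *Cnpy2* fell by 0.52 in LN332. *Sdf2* had log2 fold changes of -0.35 (limma-voom adjusted p = 0.0164) and -0.48 (limma-voom adjusted p = 0.00216), under the minimum change.

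Of the 23 outputs of PERK and ATF4, 5 passed the threshold between the lines in vehicle and 6 in LN332, beside the 18.5% and 20.6% of all genes given above. *Vldlr*, a lipoprotein receptor, rose by 3.63 in vehicle and 3.53 in LN332, *Stc2*, a secreted glycoprotein, rose by 3.40 (SE 0.81) and 4.10 (SE 0.75), and *Chac1*, an enzyme of glutathione breakdown, rose by 1.08 in vehicle. In MKα3− cells *Stc2* was near the floor, at 0.173 CPM in vehicle and 0.180 in LN332, against 1.41 and 3.09 in MKα3+ cells. It was thus kept by the filter through MKα3+ libraries, and its fold changes rest on values near 0. *Vldlr* was at 0.771 and 1.22 CPM in MKα3− cells. In all, 3 of the 23 rose and 2 fell in vehicle, and 2 rose and 4 fell in LN332. *Nupr1*, a stress-induced nuclear protein, fell with log2 fold changes of -1.12 and -1.66, *Pmaip1*, a pro-apoptotic BCL2-family gene, fell with -1.02 and -1.18. Among 16 cytosolic and mitochondrial chaperones, 3 passed in vehicle and 5 in LN332, beside the same shares of all genes. *Hspb1* fell with log2 fold changes of -1.76 and -1.87 and *Hspa1a*, a near-identical copy of *Hspa1b* whose reads may be divided between the pair, fell with -1.23 and -1.16, while *Dnaja1* rose by 0.70 and 0.68 and *Hspa9*, the mitochondrial Hsp70, rose by 0.57 in LN332.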

How the data were processed

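RNA-seq libraries of 4 groups with 4 replicates each were analysed. The authors aligned reads to mm10 (Rsubread), assigned them to Entrez genes with featureCounts, and deposited the counts of 14474 genes as they were, with no normalization. Of these genes 284 have no symbol. The methods' filter (over 0.5 CPM in at least 3 libraries) removed 0 genes. The strand setting is not given in the sources used here.

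TMM factors came from edgeR 4.0.16 and tests from limma-voom (limma 3.58.1, R 4.3.3), with all 16 libraries in 1 fit, after the study's methods. The threshold was an adjusted p under 0.05 (Benjamini-Hochberg over all genes) and an absolute log2 fold change over 0.5. The 10 genes and the lists by role were chosen with earlier results of these data known. All 10 genes are named. Of the lists, up to 4 called genes of largest change per comparison and role were named, with *Sdf2*, *Xbp1*, *Atf4*, *Atf6*, *Ern1*, *Eif2ak3*, *Hsp90b1* and *Trib3*. The fit was tested on simulated data. No 2 replicates differed by as little as sampling noise (smallest chi-square per degree of freedom 5.45).

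The replicate number occurs once in each group. Deviations from group means correlated between same-numbered libraries by 0.620, 0.474, 0.202 and 0.580 in MKα3+ cells with LN332 and vehicle, and this comparison is paired. Its values are from the fit without replicate number unless the block is named. In the other 3 comparisons at least 1 number had a correlation under 0.1, and the rest were between 0.107 and 0.558. Whether numbers pair those libraries is not settled. As alternatives, edgeR's quasi-likelihood test and DESeq2 1.42.0 were run, with other scalings, filters, weights and minimum changes, the replicate block, only the groups compared, and each library left out. The count of genes below 0 and the removal of the pair of libraries that stood apart were added after seeing the data. Positions are from RefSeq and exonic lengths from GENCODE, both on GRCm38.p6.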

Additional observations from a re-analysis of the deposited data

Results flagged for a closer look

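In 40 groups of 4 libraries (10 genes in 4 groups), a single library stood far from the other 3 in 3 groups by Dixon's test, where chance gives about 2. The level of *Sdf2l1* in replicate 3 of vehicle-treated MKα3+ cells was 78.2 CPM, above a range of 62.8 to 63.4 CPM over the other 3 libraries of its group. Replicate 1 of LN332-treated MKα3+ cells stood apart in 2 genes. There *Dnajb9* reached 18.3 CPM, above a range of 11.1 to 11.8 CPM, and *Hyou1* was at 234 CPM, below a range of 325 to 342 CPM.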

How the results depend on the processing

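Of the 10 genes, the count past the threshold with LN332 in MKα3+ cells (1 by limma-voom) was 0 with edgeR, with library size alone, with a minimum log2 fold change of 1 and without both libraries that stood apart, and ran from 0 to 1 with 1 library left out (0 in 13 of 16 fits). It was 0 in MKα3− cells under every alternative run. Between the lines it was 2 in vehicle and 1 in LN332 with no minimum change, and 0 to 1 in LN332 with 1 library left out, where *Dnajb9* passed without LN332-treated MKα3− replicate 1. Of the 103 other genes, 11 passed in vehicle, or 23 with no minimum change and 7 with a minimum of 1, and 15 in LN332, or 26 and 6. With LN332 in MKα3− cells the count of 0 became 3 with DESeq2, 1 with quality weights, 0 to 2 with 1 library left out and 11 with the replicate block. Quality weights called 123 of all 14474 genes there. Deviations of same-numbered libraries correlated there by 0.192, 0.507, 0.300 and -0.0118, so whether these libraries are paired is not settled. In MKα3+ cells the count of 0 became 4 with the block, 7 with quality weights and 1 with only the groups compared. The counts of 7 and 1 are given without a share of all genes. With the block, genes called over all went from 44 to 259 in MKα3− cells and from 27 to 218 in MKα3+ cells, and the block changed no call of the 10 genes at the threshold with its minimum change. At an adjusted p alone, the block added *Hspa5* (limma-voom adjusted p = 0.0418), *Dnajb9* (0.00897) and *Herpud1* (0.0171) between the lines in vehicle. In LN332 it added *Dnajb9* (0.00531). Whether numbers pair the libraries of these comparisons is not settled. Near 0, the sign turned for *Ddit3* in vehicle (-0.024 with quality weights, -0.063 to 0.25 with 1 library left out), for *Sdf2l1* in vehicle (-0.041 to 0.068 with 1 library left out), for *Ddit3* with LN332 in MKα3+ cells (-0.17 to 0.19 with 1 library left out), and in MKα3− cells with LN332 for *Dnajb11* (-0.18 to 0.00027 with 1 library left out) and *Herpud1* (0.00416 with edgeR, 0.00219 with DESeq2, -0.12 to 0.085 with 1 library left out). The 10 genes had 7 to 9 log2 fold changes below 0 in MKα3− cells and 9 to 10 in MKα3+ cells over all alternatives, and the 23 outputs of PERK and ATF4 had 19 to 23 and 20 to 23 above 0. The cause of these shifts was not tested.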
